A study of Homo sapiens with 6 samples.

Results

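The heparan sulfate system was described here as 33 genes, namely the core proteins that carry the sugar chain and the enzymes that build, sulfate, edit and cut it. The genes were taken by symbol from a list of 12 core protein genes and 21 enzyme genes. The rule uses no measured value, but the list was chosen with earlier results of these data known. The expression table of 17039 genes held 31 of them, and GPC3 and HS3ST2 were not analysed here. A mean of at least 0.1 FPKM (reads scaled to the length of the gene and to the size of the library, so that levels of genes of different length can be compared) over all libraries was reached by 24 of the 33 genes, and these 24 were tested among 13465 genes in all.

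Heparan sulfate is a long sulfated sugar chain that animal cells attach to a small set of proteins on the plasma membrane and in the basement membrane. The chain holds growth factors, chemokines, enzymes and matrix proteins at the cell surface, and the pattern of its sulfate groups decides in part which of them bind. Syndecans span the membrane, glypicans are tied to it by a lipid anchor, and perlecan and agrin are secreted into the matrix. In tumor biology the chain is known as a barrier that invading cells cross and cut, also at the basement membrane of brain vessels.

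The study compared 231-BR cells, a brain-seeking variant of the human triple-negative breast cancer line MDA-MB-231, with the parental MDA-MB-231 cells, in order to find genes related to brain metastasis. RNA was taken from cultured cells, 3 libraries per line. Both lines grew in DMEM with 10% fetal bovine serum and penicillin-streptomycin, and the medium of 231-BR cells also held 200 µg/mL of the antibiotic G418, so the line and the antibiotic cannot be told apart. Each side is a single cell line in culture, and the labels do not say that the libraries of a line came from separate cultures, so that the p-values measure the spread between these libraries only.

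The libraries of a line resembled each other closely. Correlations of log2 values were taken across genes with a mean of at least 1 FPKM. The lowest was 0.997 between libraries of the same line, and the highest was 0.902 between libraries of different lines. Summed FPKM was 465020 to 472007 in 231-BR libraries and 486937 to 496420 in MDA-MB-231 libraries. The titles give only the lines 231-BR and MDA-MB-231, whereas another label field numbers the lines upward within each group, and the libraries were grouped by title. Genes known for mesenchymal triple-negative cells (VIM, CD44, AXL, CAV1 and MSN) were all expressed, with a summed level of 3941 to 3974 FPKM in 231-BR and 3220 to 3272 FPKM in MDA-MB-231 libraries. They did not move together. VIM, CAV1 and MSN were higher in 231-BR cells (log2 fold change 0.147, 1.092 and 1.375), and CD44 and AXL were lower (-0.468 and -0.274). Of the luminal epithelial markers CDH1 and PGR were under 0.1 FPKM in every library. The list of 8 summed to 463.4 to 476.9 FPKM in 231-BR against 576 to 620.7 FPKM in MDA-MB-231 libraries. Nearly all of this sum was KRT8 and KRT18, which were lower in 231-BR cells (log2 fold change -0.43 and -0.37). GATA3 (1.24 against 0.433 FPKM, log2 fold change 1.34), ERBB2 (9.88 against 4.95 FPKM, 0.98) and EPCAM (8.70 against 5.06 FPKM, 0.77) were higher. ESR1 did not pass the limma test (adjusted p = 0.16).

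Markers of cells that could accompany tumor cells were low. The fibroblast and pericyte list, with 7 of 8 genes in the table, summed to 3.81 to 4.5 FPKM in 231-BR and 1.92 to 2.25 FPKM in MDA-MB-231 libraries, with LUM, PDGFRB and COL1A2 under 0.1 FPKM throughout. Of this list ACTA2 was higher in 231-BR cells (2.35 ± 0.366 against 0.35 ± 0.078 FPKM, log2 fold change 2.45, adjusted p = 2.6e-07), and PDGFRA was at 0.25 ± 0.010 FPKM in 231-BR libraries and listed at 0 in the MDA-MB-231 libraries. COL1A1 was lower, at 0.517 ± 0.029 against 0.93 ± 0.05 FPKM (-0.74, limma adjusted p = 0.00015). RGS5 was at 1.00 ± 0.067 against 0.733 ± 0.081 FPKM (0.41, limma adjusted p = 0.0085). The 6 endothelial markers summed to 1.86 to 2.23 FPKM against 0.73 to 0.97 FPKM, with CDH5, VWF and TEK near 0, KDR at 1.52 ± 0.125 against 0.523 ± 0.093 FPKM (log2 fold change 1.39, adjusted p = 4.3e-06) and PECAM1 at 0.42 ± 0.056 against 0.183 ± 0.031 FPKM (0.88, adjusted p = 0.00066). The leukocyte list, with 4 of 6 genes in the table, stayed at or under 0.33 FPKM in every library. The neural and glial list, with 5 of 6 genes in the table, summed to 20.96 to 21.38 FPKM against 13.09 to 14.44 FPKM, nearly all of it MBP, while GFAP and AQP4 were near 0. MBP had a log2 fold change of 0.62, and SNAP25 went the other way, at 0.053 ± 0.031 against 0.203 ± 0.049 FPKM (-0.99, limma adjusted p = 0.0025). RBFOX3, left untested for low values, was at 0.127 ± 0.031 against 0.01 ± 0.017 FPKM. The part of these lists in the results that follow was not tested. In bulk RNA, fewer cells of a type and less RNA per cell cannot be told apart.

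A gene was counted as changed when its adjusted p was under 0.05 and its absolute log2 fold change, 231-BR against MDA-MB-231, was over 1. By this rule 6 heparan sulfate genes were higher in 231-BR cells (SDC2, SDC3, GPC4, HS6ST3, HS3ST1 and HPSE), where 10.9% of all genes tested were higher. Lower in 231-BR cells were 3 genes (SDC4, GPC1 and AGRN), where 4.34% of all genes tested were lower. All 3 lower genes encode core proteins, and of the 6 higher genes 3 encode core proteins and 3 encode enzymes. An adjusted p under 0.05 alone was reached by 18 of the 24 genes, a share close to the 77.3% of all genes tested. In 18 of the 24 genes every library of one line lay above every library of the other, as in 78.4% of all genes. The median log2 fold change was 0.14 over the 24 genes and 0.08 over all genes tested. Under quantile normalization the median of all genes moved to -0.06 and the calls over all genes from 1467 higher and 584 lower to 1061 higher and 947 lower, while the heparan sulfate genes gave 5 higher and 3 lower.

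**Figure D1:**
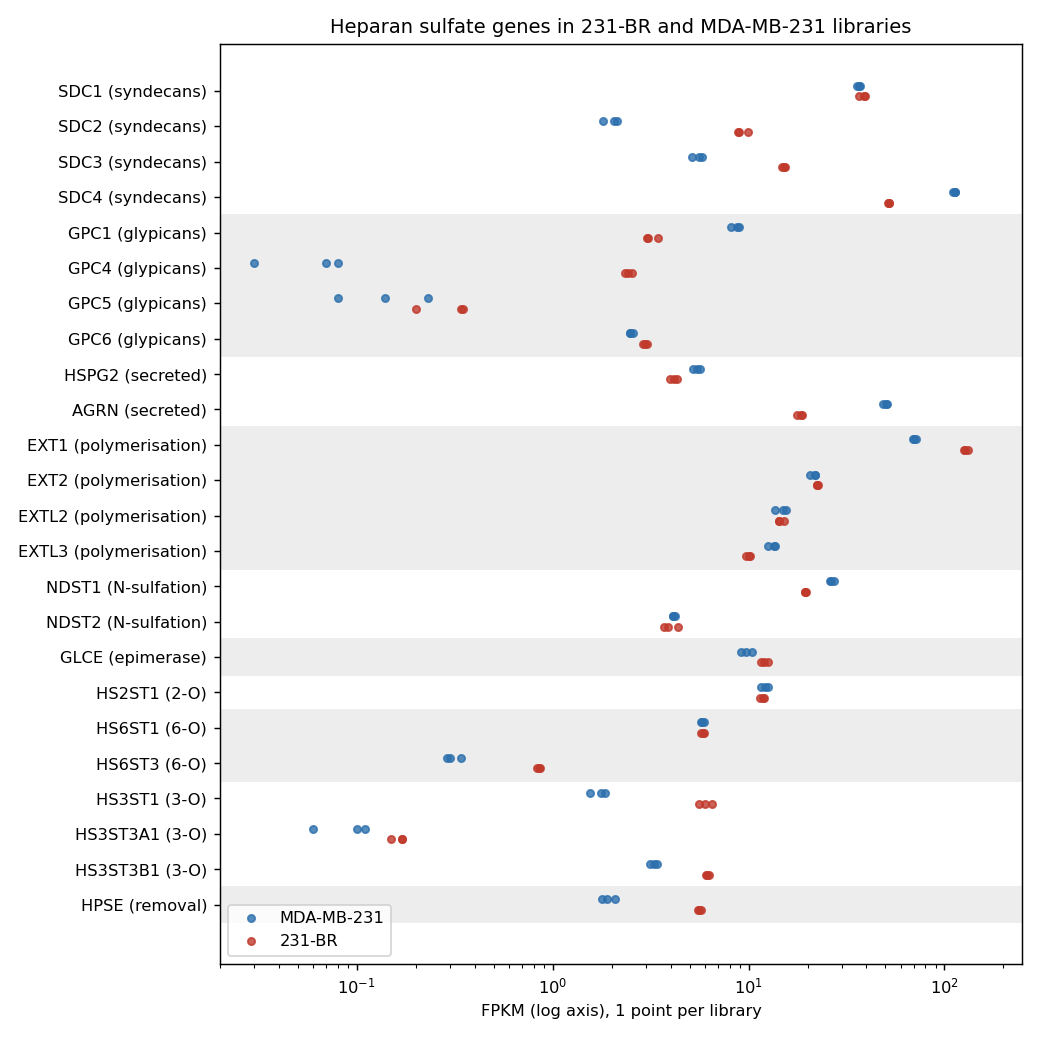
FPKM on a log axis of the 24 tested heparan sulfate genes, ordered by role, with 1 point per library (red, 231-BR; blue, MDA-MB-231). SDC4, GPC1 and AGRN lie to the left in 231-BR cells, and SDC2, SDC3, GPC4, HS6ST3, HS3ST1 and HPSE lie to the right. The points of SDC1, GPC5, EXTL2, NDST2, HS2ST1 and HS6ST1 overlap between the lines.

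Within the syndecans, the level of SDC4 fell in 231-BR cells while SDC2 and SDC3 rose, and SDC1 did not pass the test. SDC4 encodes syndecan-4, a widely expressed syndecan found in focal adhesions, and it was the most expressed core protein gene of MDA-MB-231 cells. SDC4 measured 51.95, 51.79 and 52.37 FPKM in the 231-BR libraries and 113.38, 111.01 and 113.29 FPKM in the MDA-MB-231 libraries. The lines were far apart, and the spread within a line was small, 52.04 ± 0.2996 FPKM against 112.6 ± 1.34 FPKM (SD, n = 3 each). The log2 fold change was -1.11 (SE 0.022, 95% interval -1.162 to -1.061, adjusted p = 7.4e-11), which is 2.16-fold lower in 231-BR cells by the ratio of means.

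SDC2, which encodes syndecan-2, known from mesenchymal and neural cells, measured 8.94, 8.84 and 9.91 FPKM in the 231-BR libraries and 2.07, 2.12 and 1.81 FPKM in the MDA-MB-231 libraries. Every 231-BR library was above every MDA-MB-231 library. The ratio of means was 4.62, and the log2 fold change was 2.15 (SE 0.076, 95% interval 1.983 to 2.322, adjusted p = 3.4e-09). SDC2 is also one of the hub genes that the study drew from these libraries, so its place in that group is not independent of its change here.

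SDC3 encodes syndecan-3, best known from neurons. Its levels were 15.43, 14.90 and 15.19 FPKM in 231-BR cells and 5.78, 5.17 and 5.58 FPKM in MDA-MB-231 cells, without overlap. The log2 fold change was 1.45 (SE 0.049, 95% interval 1.336 to 1.557, adjusted p = 2.8e-09), a ratio of means of 2.75. SDC1, the main syndecan of epithelia, stood at 38.28 ± 1.25 FPKM in 231-BR and 36.57 ± 0.697 FPKM in MDA-MB-231 libraries. The SDC1 libraries of the lines overlapped, and the log2 fold change of 0.07 had a 95% interval of -0.006 to 0.137 (adjusted p = 0.085).

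The levels of the syndecans relative to each other therefore differed between the lines. SDC4 made up 71.9% ± 0.285 of the summed syndecan FPKM in MDA-MB-231 cells and 45.4% ± 0.477 in 231-BR cells (SD, n = 3). The share of SDC3 was 3.52% ± 0.172 in the parental line and 13.2% ± 0.353 in the variant, and that of SDC2 was 1.28% ± 0.116 and 8.04% ± 0.423. SDC1 held 23.4% ± 0.458 and 33.4% ± 0.787, although its own level overlapped between the lines. For each of the 4 syndecans the shares of the lines did not overlap. In a single MDA-MB-231 library SDC4 was on average 20.5 ± 0.938 times as abundant as SDC3 and 56.6 ± 5.35 times as abundant as SDC2, and in 231-BR libraries these ratios were 3.43 ± 0.057 and 5.65 ± 0.319.

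The glypicans divided in the same manner, with GPC1 lower and GPC4 higher in 231-BR cells. GPC1 encodes glypican-1, which binds fibroblast growth factors through its chains and had the highest mean of the glypican genes in both lines. It measured 3.02, 3.44 and 3.06 FPKM in 231-BR libraries and 8.15, 8.69 and 8.90 FPKM in MDA-MB-231 libraries, without overlap. The log2 fold change was -1.41 (SE 0.065, 95% interval -1.555 to -1.262, adjusted p = 2.3e-08), and the mean was 2.70-fold lower.

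GPC4 encodes glypican-4, which neural precursors and astrocytes are known to make. Its levels were 2.33, 2.44 and 2.53 FPKM in 231-BR libraries and 0.07, 0.03 and 0.08 FPKM in MDA-MB-231 libraries. The gene was thus at a low but steady level in 231-BR cells and close to 0 in the parental line. The log2 fold change of 3.998 (SE 0.150, 95% interval 3.662 to 4.335, adjusted p = 5.5e-09) was the largest of the heparan sulfate genes tested, and it depends on the pseudocount of 0.1 FPKM, since with a pseudocount of 1 it was 1.70. On the FPKM scale the means were 2.43 ± 0.1002 and 0.06 ± 0.026.

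The remaining glypicans moved little or were barely expressed. GPC6 stood at 2.95 ± 0.070 FPKM in 231-BR and 2.51 ± 0.049 FPKM in MDA-MB-231 libraries, with a log2 fold change of 0.22 (adjusted p = 0.0093) that turned to -0.06 under quantile normalization and was 0.15 under median-of-ratios scaling (adjusted p = 0.058). GPC5 was at 0.20, 0.35 and 0.34 FPKM against 0.14, 0.23 and 0.08 FPKM, so that the libraries overlapped (log2 fold change 0.69, SE 0.256, adjusted p = 0.032, and 0.47 with adjusted p = 0.12 without MDA-MB-231 replicate 3). GPC2 was at or under 0.05 FPKM in every library and was not tested. GPC1 held 75.7% ± 1.17 of the summed glypican FPKM in MDA-MB-231 cells and 35.7% ± 1.47 in 231-BR cells. In 231-BR cells GPC6 held 33.3% ± 1.56 and GPC4 27.4% ± 1.11, whereas GPC4 held 0.531% ± 0.237 in MDA-MB-231 cells.

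The 250 bases before the transcription start are shown for 1 gene of each family that was higher in 231-BR cells (SDC3, GPC4) and 1 that was lower (SDC4, GPC1), so that the start regions of genes of opposite direction can be set side by side. They come from RefSeq on GRCh38.p14 and are written 5′ to 3′ along the gene. Capitals mark matches on either strand of the GC box, GGGCGG, and in SDC4 also of the kappa-B motif.
SDC3: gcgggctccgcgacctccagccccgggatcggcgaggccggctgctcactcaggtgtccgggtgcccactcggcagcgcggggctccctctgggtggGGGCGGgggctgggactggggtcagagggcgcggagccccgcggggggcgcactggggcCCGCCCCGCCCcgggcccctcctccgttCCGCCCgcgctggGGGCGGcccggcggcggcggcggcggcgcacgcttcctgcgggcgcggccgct
GPC4: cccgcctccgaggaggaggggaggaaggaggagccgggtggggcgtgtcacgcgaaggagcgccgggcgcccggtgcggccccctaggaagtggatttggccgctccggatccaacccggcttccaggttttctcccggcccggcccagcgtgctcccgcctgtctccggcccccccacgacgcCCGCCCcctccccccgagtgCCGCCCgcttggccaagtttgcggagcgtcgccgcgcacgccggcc
SDC4: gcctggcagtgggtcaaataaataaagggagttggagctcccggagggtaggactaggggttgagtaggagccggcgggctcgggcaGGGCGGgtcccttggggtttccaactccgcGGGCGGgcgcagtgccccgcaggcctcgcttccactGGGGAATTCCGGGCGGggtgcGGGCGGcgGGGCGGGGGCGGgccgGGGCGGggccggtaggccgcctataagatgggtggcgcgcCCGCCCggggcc
GPC1: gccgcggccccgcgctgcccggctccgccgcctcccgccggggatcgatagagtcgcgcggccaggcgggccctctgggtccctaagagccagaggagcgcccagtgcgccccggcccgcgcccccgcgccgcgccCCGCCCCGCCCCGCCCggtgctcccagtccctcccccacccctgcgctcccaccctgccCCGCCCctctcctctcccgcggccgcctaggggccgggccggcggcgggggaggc
SDC3 lies at chr1:30908759-30909008 (minus strand), GPC4 at chrX:133415490-133415739 (minus strand), SDC4 at chr20:45348425-45348674 (minus strand) and GPC1 at chr2:240435413-240435662 (plus strand).

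All 4 start regions were rich in G and C, at 83.6% in SDC3, 76% in GPC4, 73.6% in SDC4 and 84% in GPC1, beside a median of 58% over the 35116 promoters of the table. GC boxes, some of them overlapping, were found 5 times in SDC3, 2 times in GPC4, 8 times in SDC4 and 4 times in GPC1, and 42.6% of all promoters held at least 1. The kappa-B motif was found in SDC4, where it adjoins a GC box, and in 5.21% of all promoters. CCAAT (32% of all promoters), TATAAA (10.7%), the AP-1 motif TGANTCA (6.57%) and the E-box CACGTG (6.34%) were not found on either strand of these 4 windows. Neither pair of genes with the same direction shared a searched motif that the other pair lacked. Of the 33 genes, those on chromosome 8 (SDC2, EXT1, EXTL3 and SULF1) were left out of the motif search. No such limit was set for the 35116 promoters. Promoters of 27 of the 33 genes were searched, 37 promoters in all, and AGRN and GPC3 were also not among them. Of these 27 genes 22 had a GC box, 5 a TATAAA and 2 (SDC4 and EXTL2) a kappa-B match in at least 1 of their promoters. These counts are per gene, and some genes had several promoters. The percentages over all promoters count single promoters, so they are not on the same scale. These matches are descriptions of letters and not of bound sites.

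Among the secreted core proteins, AGRN fell in 231-BR cells and HSPG2 did so to a smaller degree. AGRN encodes agrin, a basement membrane proteoglycan known from the neuromuscular junction and from brain vessels. It measured 17.59, 18.76 and 18.52 FPKM in 231-BR and 48.80, 50.30 and 51.14 FPKM in MDA-MB-231 libraries, without overlap. The log2 fold change was -1.45 (SE 0.034, 95% interval -1.525 to -1.372, adjusted p = 2e-10), and the mean was 2.74-fold lower. HSPG2 encodes perlecan and stood at 4.15 ± 0.157 against 5.44 ± 0.235 FPKM, a log2 fold change of -0.38 (SE 0.058, adjusted p = 0.00016) that stayed under the fold threshold. Of the HSPG2 exon bases 11.7% are shared with LDLRAD2 on the opposite strand, and reads there may have been counted for either gene. Within a library AGRN was 9.23 ± 0.530 times as abundant as HSPG2 in MDA-MB-231 cells and 4.41 ± 0.284 times in 231-BR cells.

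Summed over each family, transcripts of membrane core proteins were lower in every 231-BR library than in any MDA-MB-231 library. The 4 syndecans added up to 113.16, 114.66 and 116.33 FPKM in 231-BR libraries and to 157.07, 154.93 and 157.91 FPKM in MDA-MB-231 libraries, a ratio of means of 0.732. The 5 glypicans in the table added up to 8.62, 9.21 and 8.84 FPKM against 10.90, 11.55 and 11.56 FPKM, a ratio of 0.784. For syndecans and glypicans together the ratio was 0.736. All 231-BR libraries lay below all MDA-MB-231 libraries in each of these 3 sums, and the exact two-sided permutation test gave p = 0.1 for each (adjusted p = 0.1), the smallest value it can give with 3 libraries per line. The lower syndecan sum goes with SDC4, whose mean fell by 60.5 FPKM, whereas the means of SDC2 and SDC3 rose by 7.23 and 9.66 FPKM.

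**Figure D2:**
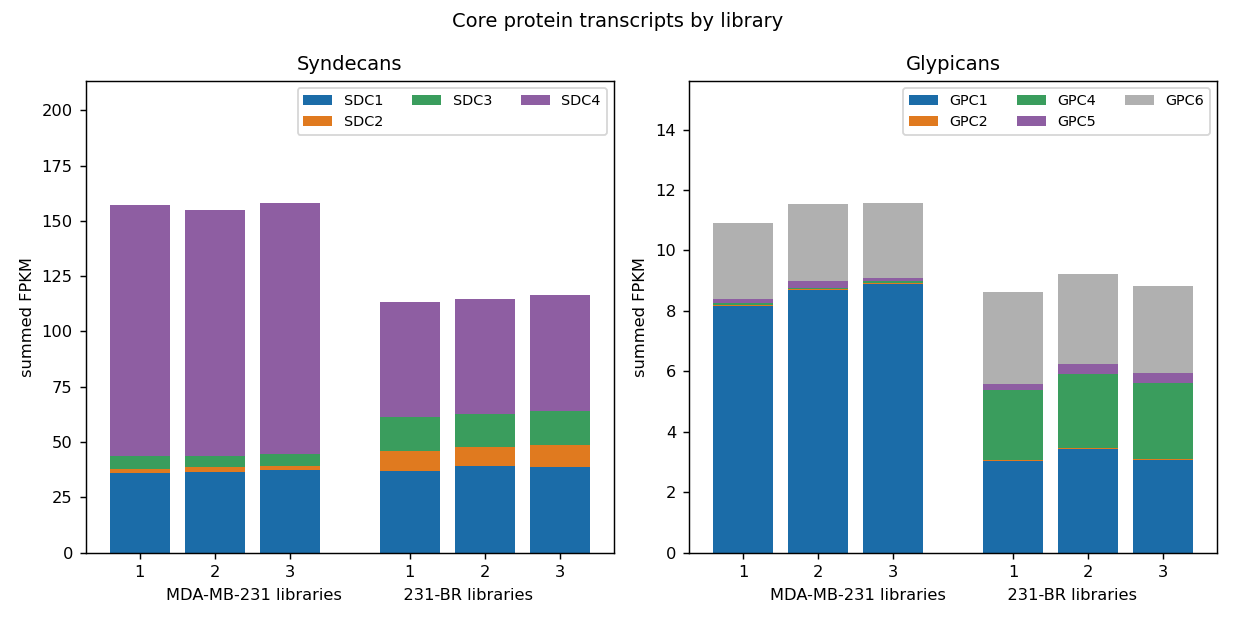
Summed FPKM of the syndecans (left) and of the glypicans in the table (right), 1 bar per library, with each gene as a coloured segment. Bars of 231-BR libraries are shorter (113.16 to 116.33 against 154.93 to 157.91 FPKM for syndecans), with a smaller SDC4 or GPC1 segment and larger SDC2, SDC3 and GPC4 segments.

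The enzymes that lengthen the chain were expressed in both lines, and EXT1 was the most expressed gene of the whole system in 231-BR cells. EXT1 and EXT2 form the polymerase that adds the alternating sugars. EXT1 measured 131.24, 126.40 and 127.97 FPKM in 231-BR libraries and 70.31, 71.94 and 69.22 FPKM in MDA-MB-231 libraries. The lines did not overlap, and the mean was 1.82 times as high in 231-BR cells, with a log2 fold change of 0.87 (SE 0.025, 95% interval 0.809 to 0.922, adjusted p = 8.9e-10) that lies under the fold threshold of 1.

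Its partner EXT2 was at 22.43 ± 0.182 FPKM in 231-BR and 21.45 ± 0.679 FPKM in MDA-MB-231 libraries (log2 fold change 0.07, 95% interval -0.009 to 0.139, adjusted p = 0.098). Within a library EXT1 was accordingly 5.73 ± 0.080 times as abundant as EXT2 in the variant and 3.29 ± 0.074 times in the parental line. EXTL3, which adds the first glucosamine and so starts a heparan sulfate chain, stood at 9.98 ± 0.210 FPKM against 13.2 ± 0.575 FPKM (log2 fold change -0.40, SE 0.043, adjusted p = 1.3e-05). EXTL2, which can stop a chain at its linkage region, overlapped between the lines at 14.6 ± 0.509 and 14.8 ± 0.946 FPKM (95% interval of the log2 fold change -0.123 to 0.104). EXTL1 was listed at 0 in every 231-BR library and at 0.01 FPKM in every MDA-MB-231 library.

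N-sulfation, the step on which the later sulfation steps rest, is carried out by the NDST enzymes. NDST1, the most expressed of them, measured 19.55, 19.46 and 19.33 FPKM in 231-BR libraries and 26.50, 27.33 and 26.02 FPKM in MDA-MB-231 libraries. The libraries did not overlap, and the log2 fold change of -0.45 (SE 0.031, 95% interval -0.520 to -0.381, adjusted p = 3.8e-07) stayed under the fold threshold. NDST2 was at 3.97 ± 0.339 against 4.15 ± 0.051 FPKM (log2 fold change -0.07, 95% interval -0.222 to 0.089, adjusted p = 0.4, and -0.32 with adjusted p = 0.0023 under quantile normalization), a value that is uncertain because 82.9% of its exon bases are shared with a gene model read from the same strand. NDST3 reached at most 0.11 FPKM and NDST4 at most 0.01 FPKM in any library.

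The epimerase gene GLCE and the sulfotransferase genes HS2ST1 and HS6ST1 stayed under the fold threshold. GLCE, which turns glucuronic into iduronic acid, measured 12.61, 11.59 and 11.94 FPKM in 231-BR and 10.45, 9.16 and 9.69 FPKM in MDA-MB-231 libraries, a log2 fold change of 0.30 (SE 0.055, adjusted p = 0.00058). HS2ST1, the only 2-O-sulfotransferase of heparan sulfate, measured 11.94, 11.50 and 11.86 FPKM against 12.20, 12.63 and 11.58 FPKM. The HS2ST1 libraries overlapped, and the interval of the log2 fold change was -0.140 to 0.052 (adjusted p = 0.37). HS6ST1 measured 5.72, 5.85 and 5.91 FPKM against 5.91, 5.81 and 5.75 FPKM, and its interval was -0.105 to 0.106 (adjusted p = 0.99). These intervals hold for the FPKM as deposited. Under quantile normalization the log2 fold change was -0.14 for HS2ST1 (adjusted p = 0.012) and -0.20 for HS6ST1 (adjusted p = 0.0027).

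HS6ST3, a further 6-O-sulfotransferase known from brain, rose from a low level. It measured 0.83, 0.85 and 0.86 FPKM in 231-BR libraries and 0.34, 0.29 and 0.30 FPKM in MDA-MB-231 libraries, a ratio of means of 2.73 without overlap. The log2 fold change was 1.21 (SE 0.121, 95% interval 0.937 to 1.481, adjusted p = 7.1e-06), and it lost the call with a pseudocount of 1, at 0.50, and under quantile normalization, at 0.79. HS6ST2 was at or under 0.02 FPKM in every library.

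The 3-O-sulfotransferases add a rare last sulfate that few binding partners need. Of the 3 listed genes tested HS3ST1 alone passed the fold threshold, and all 3 had an adjusted p under 0.05, as 77.3% of all genes did. HS3ST5, a 3-O-sulfotransferase outside the list, had a log2 fold change of -0.27 (adjusted p = 0.18). HS3ST1, the enzyme known for making the antithrombin binding site, measured 5.99, 5.59 and 6.52 FPKM in 231-BR libraries and 1.56, 1.85 and 1.77 FPKM in MDA-MB-231 libraries. The lines did not overlap, the ratio of means was 3.49, and the log2 fold change was 1.75 (SE 0.084, 95% interval 1.559 to 1.937, adjusted p = 3e-08). HS3ST3B1 encodes an enzyme whose 3-O-sulfated chains are bound by herpes simplex virus glycoprotein D. It measured 6.29, 6.10 and 6.17 FPKM against 3.40, 3.15 and 3.29 FPKM. Its log2 fold change of 0.90 (SE 0.055, adjusted p = 1.7e-07) had an interval of 0.772 to 1.020 that includes the fold threshold. HS3ST3A1, at 0.163 ± 0.012 and 0.09 ± 0.026 FPKM, has a catalytic domain nearly identical to that of HS3ST3B1, so reads may have been split between them (log2 fold change 0.48, adjusted p = 0.043). Its adjusted p was 0.062 under median-of-ratios scaling, 0.078 with a pseudocount of 1 and 0.52 under quantile normalization. With 1 library left out it was 0.044 without MDA-MB-231 replicate 3 and 0.06 to 0.13 without each of the others.

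Of the genes that cut or trim the finished chain, HPSE was expressed and rose in 231-BR cells. HPSE encodes heparanase, the enzyme that cleaves heparan sulfate in matrix and at the cell surface and that is known from work on invasion and brain metastasis. It measured 5.75, 5.61 and 5.52 FPKM in 231-BR libraries and 1.89, 2.09 and 1.78 FPKM in MDA-MB-231 libraries. All 231-BR libraries were above all MDA-MB-231 libraries, with a ratio of means of 2.93 and a log2 fold change of 1.51 (SE 0.072, 95% interval 1.344 to 1.668, adjusted p = 2.8e-08).

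The endosulfatases, which remove 6-O-sulfate groups outside the cell, were nearly silent in both lines. SULF1 measured 0.08, 0.15 and 0.08 FPKM in 231-BR libraries and was listed at 0 in all MDA-MB-231 libraries. It fell under the filter on low values, and with no filter its log2 fold change was 1.01 (adjusted p = 0.0011), a value set by the pseudocount. SULF2 was at or under 0.01 FPKM in every library. In all, 7 genes (GPC2, EXTL1, NDST3, NDST4, HS6ST2, SULF1 and SULF2) were left untested for low values, and none of them reached 0.2 FPKM.

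**Figure D3:**
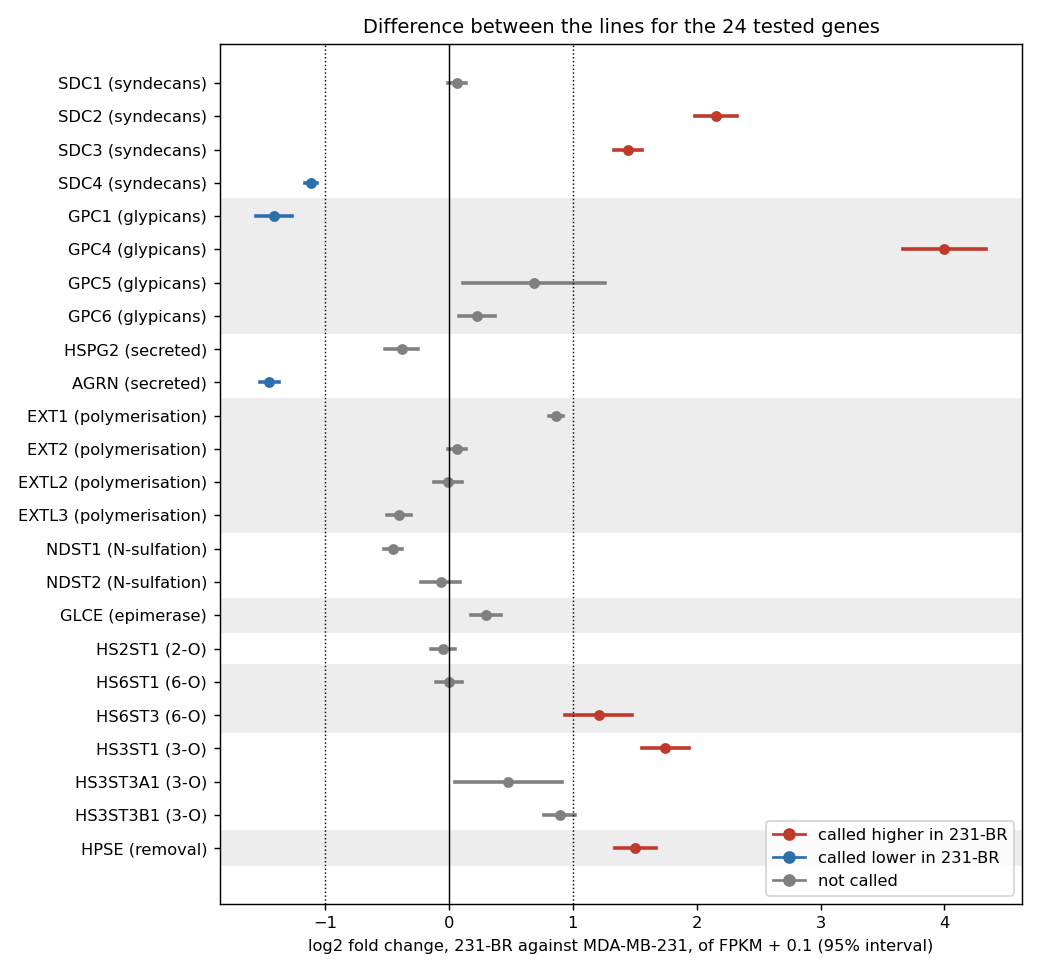
Log2 fold change, 231-BR against MDA-MB-231, of FPKM + 0.1 for the 24 tested genes with 95% intervals from limma; dotted lines mark the fold threshold of 1 in either direction. Core proteins lie on both sides, from -1.45 (AGRN) to 3.998 (GPC4), while the enzymes run from -0.45 (NDST1) to 1.75 (HS3ST1) and none passes the threshold on the lower side. Of all genes tested 4.34% were called lower.

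By role, the core proteins and the enzymes had similar medians and different spreads. The median log2 fold change was 0.14 over the 10 core proteins tested and 0.18 over the 14 enzymes tested. Of the core proteins 3 were higher and 3 lower, and of the enzymes 3 were higher and 0 lower, beside 10.9% higher and 4.34% lower of all genes tested. At an adjusted p under 0.05 without the fold threshold, 7 enzymes were higher and 2, NDST1 and EXTL3, were lower. Of all genes tested 77.3% reached that adjusted p in either direction. No test compared the groups.

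The changed genes lie on 7 chromosomes. By GENCODE release 29 on GRCh38 (start, end), the higher genes are SDC3 on chromosome 1 (30869467, 30908761), HPSE (83292461, 83335153) and HS3ST1 (11393150, 11429765) on chromosome 4, SDC2 on chromosome 8 (96493351, 96611780), HS6ST3 on chromosome 13 (96090839, 96839562) and GPC4 on chromosome X (133300103, 133415490). The lower genes are AGRN on chromosome 1 (1020123, 1056118), GPC1 on chromosome 2 (240435671, 240468078) and SDC4 on chromosome 20 (45325288, 45348424). As a description of the surroundings of each, the median was taken over the fold changes of up to 40 genes next to it, 20 on either side. Only tested genes with a known position and a mean of at least 1 FPKM over all libraries (11050) served as neighbours.

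The neighbour medians were 0.54 around HPSE, 0.32 around SDC3, 0.23 around SDC2, 0.00 around GPC4, -0.14 around HS3ST1 and -0.38 around HS6ST3. Around the lower genes they were -0.44 for AGRN (25 neighbours), -0.20 for GPC1 (36 neighbours) and -0.12 for SDC4. The neighbours of EXT1 had a median of 0.41 and those of HS3ST3B1 0.37, beside their own 0.87 and 0.90.

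Genes that work before, beside or after the chain were read from 9 further lists of 98 genes in all, of which 79 were tested. Of these 79 genes 10 were higher and 5 were lower in 231-BR cells, with a median log2 fold change of 0.10, beside 10.9% of all genes higher and 4.34% lower, and under quantile normalization 9 were higher and 7 lower. The counts are close to the shares over all genes, and the counts of single lists are given as descriptions. The linkage region, the short sugar stem on which heparan and chondroitin sulfate are both built, had 1 of 6 tested genes higher. This was PXYLP1, the phosphatase that removes a phosphate from the stem, at 2.87 ± 0.370 against 0.69 ± 0.125 FPKM (log2 fold change 1.91, SE 0.135, adjusted p = 4.9e-07). FAM20B, the kinase that adds that phosphate and the most expressed gene of the list in 231-BR cells, was at 16.6 ± 0.180 against 9.62 ± 0.662 FPKM (log2 fold change 0.78, adjusted p = 2.2e-07). At an adjusted p under 0.05 without the fold threshold, 3 genes of this list were higher and 2, B4GALT7 (-0.47) and B3GALT6 (-0.20), were lower. Of all genes tested 77.3% reached that adjusted p.

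The supply of sugar precursors and of the sulfate donor gave 0 of 13 tested genes past the rule by limma, with 9 at an adjusted p under 0.05 (4 higher, 5 lower) and log2 fold changes from -0.75 to 0.69. Over all genes tested 77.3% reached that adjusted p, and by the full rule 10.9% were higher and 4.34% lower. UAP1, which makes UDP-N-acetylglucosamine, was the most expressed at 184.9 ± 1.43 against 121.3 ± 0.779 FPKM. Of the lysosomal enzymes that degrade the chain 1 of 8 was lower and 0 were higher. SGSH, the sulfamidase that removes N-sulfate groups, was at 2.51 ± 0.172 against 10.4 ± 0.545 FPKM (log2 fold change -2.01, SE 0.066, adjusted p = 2e-09), whereas the list's median was 0.52 and IDS, the most expressed in 231-BR cells, was at 29.7 ± 0.341 against 22.4 ± 1.29 FPKM. HPSE, which cuts the chain into fragments, and SGSH, which degrades fragments, thus changed in opposite directions.

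**Figure D4:**
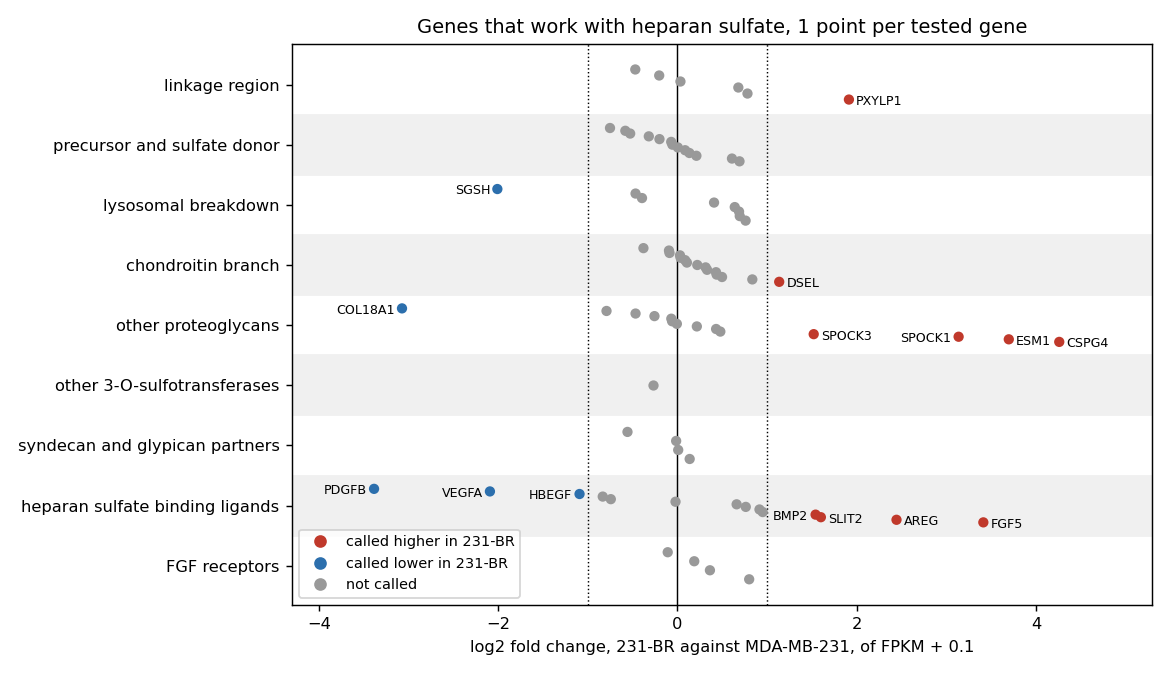
Log2 fold change, 231-BR against MDA-MB-231, of FPKM + 0.1 for the 79 tested genes of the 9 further lists, 1 point per gene, with the dotted lines at the fold threshold of 1. Genes past the rule are named, 10 higher in red and 5 lower in blue, and most of them are other proteoglycans or ligands that bind heparan sulfate.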

How the data were processed

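Transcripts of cultured cells of both lines were measured by paired-end RNA sequencing (100 bases, BGISEQ-500) after oligo(dT) selection, 3 libraries per line. The authors deposited FPKM per gene. The submitters' processing notes name HISAT2 2.0.4, Bowtie2 2.2.5 and GRCh38.p12, and the program that computed FPKM and its use of strand are not given in the sources used here. No read counts were used, so the depth per library is unknown and no counting interval is given. The study's own test for counts was therefore replaced.

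Genes whose mean over all libraries reached 0.1 FPKM (13465) entered a linear model of log2(FPKM + 0.1) with the line as its term (limma 3.58.1 in R 4.3.3, with eBayes and a trend of the variance on the mean). The Benjamini-Hochberg method was applied over all of them. A gene was called at an adjusted p under 0.05 and an absolute log2 fold change over 1. The fit was tested on simulated data. Sums over families were compared by an exact permutation test. Python 3.11.15, pandas 2.3.3, numpy 2.4.6 and matplotlib 3.10.9 were used for the rest.

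Libraries were grouped by title. The genes, lists and markers were chosen with earlier results of these data known. The rule for the text gave values in every library for called genes that reached a mean of 1 FPKM in a line and for the most expressed gene of each role, and from each further list the 3 largest rises and 3 largest falls among called genes with that mean and its most expressed gene; HS6ST3, GPC5, SULF1 and sums were added after their values were seen. Ratios within a library and neighbouring genes (16518 of 17039 genes placed by identifier in GENCODE release 29) were also chosen after the data were seen. The alternatives were pseudocounts of 1 and 0.01, no filter, a filter at 1 FPKM, median-of-ratios scaling, quantile normalization, no trend, a replicate block, each library left out and other call rules. Deviations of libraries with the same replicate number correlated at -0.027 to 0.015, so numbers were not taken as pairs.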

Additional observations from a re-analysis of the deposited data

How the results depend on the processing

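The counts of 6 higher and 3 lower heparan sulfate genes were the same under median-of-ratios scaling, without the trend, and without each library in turn. The fit with the replicate block also gave 6 and 3, and no call of a heparan sulfate gene changed in it, while the adjusted p alone crossed 0.05 for SDC1 (0.046) and HS3ST3A1 (0.06). A pseudocount of 1, a filter at a mean of 1 FPKM, a call that also asked for 1 FPKM in a line, and quantile normalization gave 5 and 3 each. A pseudocount of 0.01 gave 7 and 3, with GPC5 added at 1.01 (adjusted p = 0.041), and no filter gave 7 and 3, with SULF1 added. A fold threshold of 0.58 gave 9 and 3. For the single log2 fold changes 329 values under an alternative kept their call. GPC6 turned to -0.06 under quantile normalization, SDC1 and EXT2, which did not pass the test, to -0.01 each under median-of-ratios scaling, and EXTL2, at -0.01, to 0.03 without MDA-MB-231 replicate 1. The value of HS6ST1, near 0, also changed sign with the setting, HS6ST3 fell under the threshold in 2 settings, and the cause was not tested. Under quantile normalization HSPG2 moved to -0.60, NDST2 to -0.32, HS6ST1 to -0.20, HS2ST1 to -0.14, GLCE to 0.19, GPC5 to 0.34 and HS3ST3A1 to 0.14. A pseudocount of 1 moved GPC5 to 0.17 and HS3ST3A1 to 0.09, and a pseudocount of 0.01 moved HS3ST3A1 to 0.83.

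The log2 ratios of summed FPKM ranged from -0.46 to -0.44 for syndecans, -0.38 to -0.33 for glypicans and -0.45 to -0.43 for both with 1 library left out. They were -0.53, -0.43 and -0.52 under median-of-ratios scaling and -0.46, -0.60 and -0.47 under quantile normalization, which was added after the data were seen. The further lists gave 8 to 11 higher and 4 to 7 lower over all alternatives. Low values, such as those of GPC4 in MDA-MB-231 cells, rest on few reads, and the number of reads is not known from FPKM.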

Other observations

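Proteoglycans outside the heparan sulfate list also differed between the lines, with 4 of 14 tested genes higher and 1 lower in 231-BR cells, where 10.9% of all genes were higher and 4.34% lower. CSPG4, the membrane chondroitin sulfate proteoglycan known as NG2, was at 4.03 ± 0.110 FPKM in 231-BR against 0.117 ± 0.025 FPKM in MDA-MB-231 libraries (log2 fold change 4.26, adjusted p = 6.2e-10). NG2 is also known from pericytes, whose marker ACTA2 was at 2.35 against 0.35 FPKM while PDGFRB was under 0.1 FPKM in every library, and the part of such cells was not tested. ESM1, the secreted dermatan sulfate proteoglycan endocan, was at 50.3 ± 1.58 against 3.79 ± 0.178 FPKM (3.70, adjusted p = 4.6e-12), and it is among the genes that the study chose on these libraries. SPOCK1, the matrix proteoglycan testican-1, was at 2.53 ± 0.139 against 0.20 ± 0.035 FPKM (3.14, adjusted p = 6.5e-09). COL18A1, the basement membrane collagen that carries heparan sulfate, was at 1.94 ± 0.064 against 17.1 ± 1.33 FPKM (-3.07, adjusted p = 9.1e-11), in the same direction as AGRN. The most expressed gene of the list, APLP2, was at 450.1 ± 4.44 against 333.9 ± 3.08 FPKM. The enzymes of the chondroitin branch had 1 of 15 tested genes past the rule, the dermatan sulfate epimerase gene DSEL at 3.19 ± 0.076 against 1.40 ± 0.104 FPKM (1.14, adjusted p = 4.5e-07), and CHST11, the most expressed in 231-BR cells, was at 26.0 ± 0.414 against 18.4 ± 0.605 FPKM. HS3ST5, the only other 3-O-sulfotransferase tested, was at 0.36 ± 0.070 against 0.457 ± 0.099 FPKM and did not pass.

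Of the ligands that bind heparan sulfate 4 of 14 tested genes were higher and 3 lower, where 10.9% of all genes were higher and 4.34% lower. FGF5, a fibroblast growth factor, was at 54.3 ± 1.09 against 5.01 ± 0.305 FPKM (3.41, adjusted p = 7.8e-12), AREG, an EGF receptor ligand, at 7.71 ± 0.777 against 1.34 ± 0.236 FPKM (2.44, adjusted p = 3e-08) and SLIT2, a guidance ligand, at 40.2 ± 0.832 against 13.2 ± 0.553 FPKM (1.60, adjusted p = 2e-10). The fourth was BMP2 (1.54, adjusted p = 7.8e-09). PDGFB was at 0.053 ± 0.012 against 1.5 ± 0.030 FPKM (-3.39, adjusted p = 7.8e-09), VEGFA at 12.7 ± 0.794 against 54.4 ± 1.07 FPKM (-2.09, adjusted p = 9.3e-11) and HBEGF, the most expressed ligand in MDA-MB-231 cells, at 50.65 ± 1.43 against 108.1 ± 1.47 FPKM (-1.09, adjusted p = 2.8e-10). SLIT2, BMP2 and VEGFA are among the genes the study chose on these libraries. THBS1, the most expressed ligand in 231-BR cells, overlapped between the lines. None of the 4 tested FGF receptor genes passed the rule by limma (3 had an adjusted p under 0.05), and FGFR1, the most expressed, was at 28.8 ± 0.325 against 22.4 ± 0.686 FPKM. Of the syndecan and glypican partners 0 of 4 passed by limma (2 had an adjusted p under 0.05), with SDCBP, the syndecan-binding adaptor syntenin, at 131.5 ± 2.75 against 119.6 ± 1.68 FPKM. An adjusted p under 0.05 alone was reached by 77.3% of all genes tested.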
